A study of Mus musculus with 51 samples.

Results

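Rbfox1, Rbfox2, Rbfox3, Elavl2, Elavl3, Elavl4, Celf4, Nova1, Nova2 and Ptbp2 encode RNA-binding proteins known mainly from neurons, and here their chromatin was followed while mouse progenitors became astrocytes. These 10 genes, chosen by name from 22359 coding genes of the mm9 annotation, were described by every peak that overlapped the gene body or the 10 kb on either side of it in the 6 deposited peak lists. Chromatin immunoprecipitation sequencing of H3K27ac and of H3K4me1 had been done at 3 stages in cells derived from C57/BL-6 mouse embryonic stem cells. The stages were astrogliogenic neural progenitors (aNPC), grown with EGF and FGF-2, early astrocytes (eA) at day 1 and late astrocytes (lA) at day 5 of differentiation with fetal bovine serum and leukemia inhibitory factor (LIF). The authors merged 2 biological replicates of each stage and mark before they called peaks, so there was 1 list per stage and mark, no value has a replicate error, and no difference between stages could be tested.

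H3K4me1 lies at enhancers and beside promoters whether or not they are in use, and H3K27ac is found at those that are active. Rbfox proteins bind the element GCATG in introns and set which exons are kept. Rbfox3 is the antigen NeuN that serves to label mature neurons, while Rbfox2 is also made in many cells that are not neurons. Elavl2, Elavl3 and Elavl4 are the neuronal Hu proteins, which bind uridine-rich stretches and stabilize mRNAs. Nova1 and Nova2 govern neuronal splicing, Celf4 binds mRNAs in excitatory neurons, and Ptbp2 is the neural relative of the splicing repressor Ptbp1 and takes its place as progenitors become neurons.

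Sequences upstream of 4 start sites are shown because they span the range seen at these genes, from a promoter that was acetylated at every stage (Ptbp2) through promoters with H3K4me1 and no H3K27ac (Elavl3, Rbfox3) to one with only weak H3K4me1 (Rbfox1). Each is the 200 bases before the start site in mm9, written 5′ to 3′ on the gene's strand, and capitals mark CpG. Ptbp2 is chr3:119486307-119486506 on the minus strand, Elavl3 is chr9:21856468-21856667 on the minus strand, Rbfox3 is chr11:118770887-118771086 on the minus strand and Rbfox1, at the second of its coding start sites, is chr16:7069728-7069927 on the plus strand.
Ptbp2: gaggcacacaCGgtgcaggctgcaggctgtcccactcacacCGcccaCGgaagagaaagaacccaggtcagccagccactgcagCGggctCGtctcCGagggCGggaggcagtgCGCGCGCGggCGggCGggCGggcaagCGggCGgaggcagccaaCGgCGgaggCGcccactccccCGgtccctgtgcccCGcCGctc
Elavl3: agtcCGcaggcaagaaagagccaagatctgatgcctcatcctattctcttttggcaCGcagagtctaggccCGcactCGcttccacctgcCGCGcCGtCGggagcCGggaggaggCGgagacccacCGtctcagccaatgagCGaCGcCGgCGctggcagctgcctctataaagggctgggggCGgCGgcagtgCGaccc
Rbfox3: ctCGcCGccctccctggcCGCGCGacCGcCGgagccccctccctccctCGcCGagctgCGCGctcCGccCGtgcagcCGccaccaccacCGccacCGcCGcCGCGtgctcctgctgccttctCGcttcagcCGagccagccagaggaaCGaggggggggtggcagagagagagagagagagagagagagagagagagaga
Rbfox1: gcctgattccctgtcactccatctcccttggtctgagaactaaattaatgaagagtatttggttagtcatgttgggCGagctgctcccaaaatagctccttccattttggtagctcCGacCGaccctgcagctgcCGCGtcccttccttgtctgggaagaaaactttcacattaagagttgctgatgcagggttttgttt
These 200 bases held 22 CpG at Ptbp2, 18 at Elavl3, 22 at Rbfox3 and 5 at Rbfox1. Over the whole promoter, which reached from 1 kb before a coding start site to 100 bp after it, the ratio of observed to expected CpG was 0.71 at Ptbp2, 0.56 at Elavl3, 0.50 at the Rbfox3 start site used here and 0.22 at that of Rbfox1. The median over 22346 coding genes, each at its most upstream start site, was 0.41, with quartiles of 0.20 and 0.62. At their most upstream start sites, Rbfox3 had 0.16 and Rbfox1 0.17, so the ratio of Rbfox3 lay above or below the median depending on the start site. Nova1 had the highest ratio of the 10 genes, 1.03.

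The lists held 79413, 83433 and 92700 H3K27ac peaks in aNPC, eA and lA, and 154238, 185478 and 208333 H3K4me1 peaks. Read depth is not in the lists, so the strength of a peak is given as its −log10 q and as its rank, the percent of peaks of its own list with a lower −log10 q, and is not compared between lists as a level. Of the marker genes used to check the labels, the promoters of the progenitor genes Nes, Sox2, Pax6 and Vim had an H3K27ac peak at every stage and that of Olig2 at none, those of 4, 4 and 5 of 7 astrocyte genes did in aNPC, eA and lA, and those of 3, 2 and 2 of 6 neuronal genes did. Gfap, Slc1a3 and Aldoc were among the astrocyte genes at every stage, Gja1 in eA and lA, and Aqp4 only in lA. S100b had the peak only in aNPC, and Aldh1l1 had it at no stage. The neuronal genes were Tubb3 and Map2 at every stage and Syt1 in aNPC, whereas Dcx, Snap25 and Stmn2 had none. Of 4 genes of pluripotent stem cells, Esrrb had a promoter H3K27ac peak in aNPC and eA, and Pou5f1, Nanog and Zfp42 had none. Cells of other kinds in the cultures cannot be told apart from a mark carried by all cells.

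The windows of the 10 genes held 62, 114 and 97 H3K27ac peaks in aNPC, eA and lA, of which 12, 14 and 8 lay at a promoter and 41, 86 and 80 in an intron. For H3K4me1 the windows held 198, 264 and 239 peaks, of which 12, 12 and 10 lay at a promoter and 172, 236 and 213 in an intron. In aNPC, 7 of the 10 genes had any H3K27ac peak, and in eA and lA all 10 had at least 1. Rbfox1, Rbfox3 and Elavl3 were the genes with 0 H3K27ac peaks in aNPC. The share of all coding genes with no H3K27ac peak in the window was not counted. By the percent of the window under H3K27ac peaks, 33.6% of coding genes lay below Elavl2 in aNPC. In eA 29.7% lay below Rbfox1, and in lA 29.7% lay below Elavl2. Coding genes with no peak are among these shares, so genes without H3K27ac are not rare in general. No peak in these windows lay at the promoter of another gene.

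**Figure D1:**
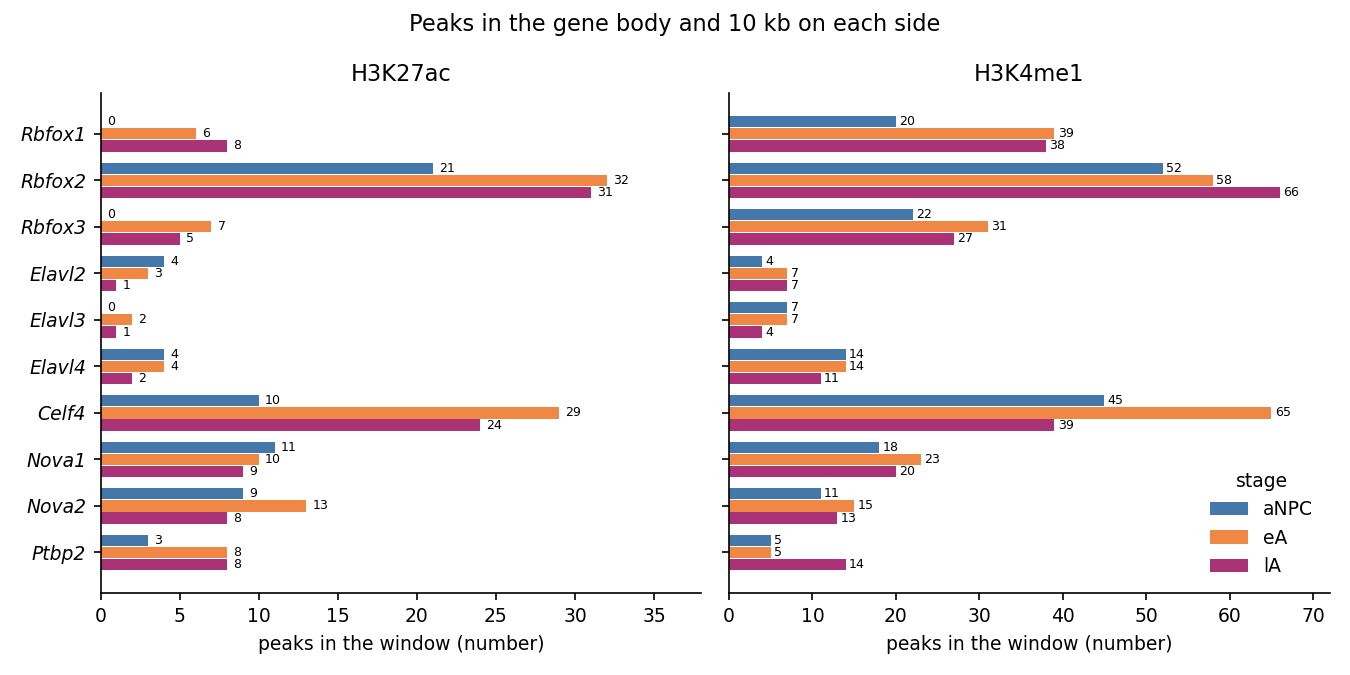
Number of H3K27ac (left) and H3K4me1 (right) peaks in the gene body and 10 kb on each side, for each gene and stage, 1 list per bar with no replicate error. Rbfox1, Rbfox3 and Elavl3 had 0 H3K27ac peaks in aNPC, while Rbfox2 had 21 and every gene had at least 4 H3K4me1 peaks at each stage.

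Because the gene bodies ran from 37.0 kb (Elavl3) to 603 kb (Rbfox1), the part of each window under peaks was compared per length. H3K27ac peaks covered a median of 1.75% of the 10 windows in aNPC, 3.19% in eA and 3.18% in lA, beside medians of 2.53%, 2.90% and 2.74% over the windows of all coding genes. H3K4me1 covered a median of 4.86%, 6.25% and 5.24%, beside 5.33%, 6.32% and 6.53%. Nova2 and Rbfox2 were the most covered by H3K27ac, at 6.09% and 5.78% in aNPC, 10.1% and 6.50% in eA and 9.23% and 6.84% in lA. The window of Nova2 was covered more than those of 78.7%, 91.0% and 90.0% of coding genes at the 3 stages. In aNPC the least covered were Rbfox1, Rbfox3 and Elavl3, each at 0%, in eA Rbfox1 at 0.37%, and in lA Elavl2 at 0.13%. Elavl2 was covered over 0.73% in aNPC and 0.49% in eA, and Elavl4 over 1.54%, 1.53% and 0.31% in aNPC, eA and lA. Rbfox1 and Rbfox3 had 0.53% and 0.52% in lA.

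At promoters, H3K27ac was found at 6, 7 and 5 of the 10 genes in the order aNPC, eA, lA, whereas 50.6%, 53.2% and 48.2% of all coding genes had such a peak. H3K4me1 was found at the promoters of 9, 8 and 8 of the 10 genes, and at 55.4%, 53.6% and 52.7% of all coding genes. The share of the 10 genes with acetylated promoters thus lay near that of coding genes in general, and the share with H3K4me1 lay above it. A gene with several start sites has more promoter sequence to be hit, and Elavl2 had 10 coding start sites, Rbfox3 and Elavl4 had 7 each, and Elavl3, Celf4, Nova1 and Ptbp2 had 1 each.

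**Figure D2:**
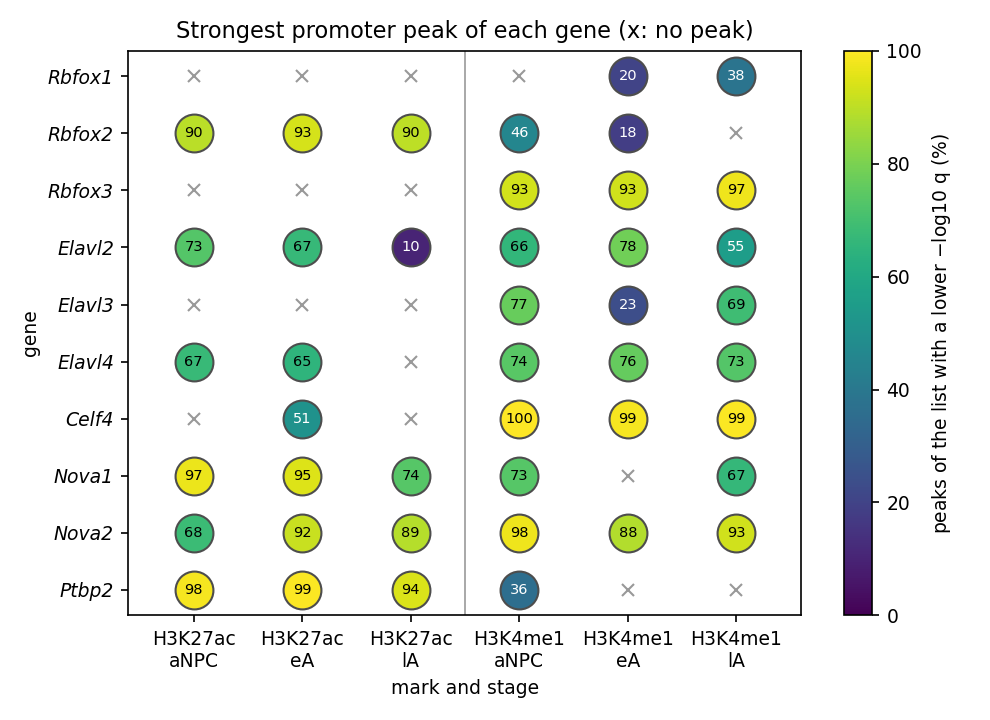
Strongest promoter peak of each gene in each of the 6 lists, colored and numbered by the percent of peaks of that list with a lower −log10 q; a cross stands for no peak. Rbfox2, Elavl2, Nova1, Nova2 and Ptbp2 had H3K27ac at every stage, Rbfox1, Rbfox3 and Elavl3 at none, and Celf4 had H3K4me1 ranks of 99.6%, 98.6% and 99.4%.

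By H3K27ac at the promoter, the genes fell into 4 groups. Rbfox2, Nova1, Nova2, Ptbp2 and Elavl2 had H3K27ac there at all 3 stages, Elavl4 had it in aNPC and eA, Celf4 in eA only, and Rbfox1, Rbfox3 and Elavl3 at no stage. With the promoter widened to 1 kb on either side of a start site, Rbfox3 joined in eA, which made 8 genes, and the counts in aNPC and lA stayed at 6 and 5. By that wider rule 52.4%, 55.4% and 51.7% of coding genes had H3K27ac.

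**Figure D3:**
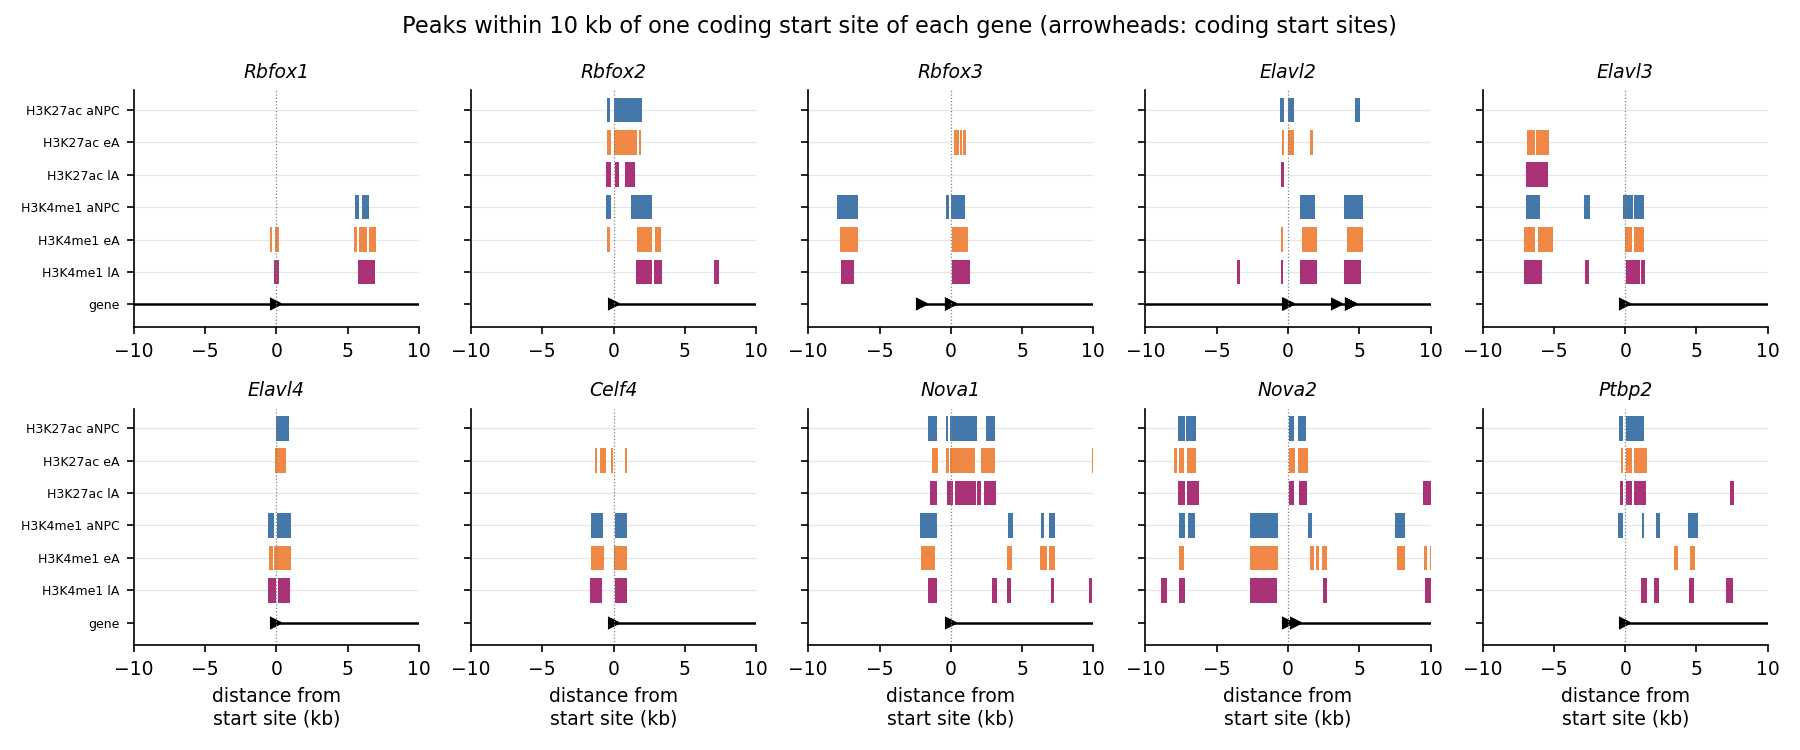
Peaks of the 6 lists within 10 kb of 1 coding start site of each gene (the one whose promoter held the strongest peak), drawn to scale by distance in the direction of transcription; rows are lists, blocks are peaks, the black line is the gene and arrowheads are coding start sites. In aNPC and eA, H3K27ac filled the stretch after the start sites of Ptbp2, Nova1 and Rbfox2. Elavl3 had none in aNPC, and in eA and lA only upstream, beyond 5 kb.

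Ptbp2 (ENSMUSG00000028134.7, chromosome 3, 119421660 to 119486306, minus strand) had the strongest promoter acetylation of the 10 genes. Its strongest promoter peak of H3K27ac spanned 119484973 to 119486269 in aNPC, 119485797 to 119486251 in eA and 119485847 to 119486231 in lA. Their −log10 q values were 208, 206 and 43.8, with ranks of 98.5%, 99.5% and 94.3% in the respective lists. The summits lay 290, 288 and 249 bp downstream of the start site. H3K4me1 had 1 promoter peak in aNPC (−log10 q 7.38, rank 35.6%) and 0 in eA and lA. Inside the gene, an intronic site, 119448065 to 119448798 in eA, had both marks at every stage, and its H3K27ac peak had a −log10 q of 4.13 in aNPC, 11.5 in eA and 13.5 in lA. That site lay 37.5 kb, 37.6 kb and 37.8 kb downstream of the start site by its summits. Of the 8 H3K27ac peaks of eA at Ptbp2, 4 had no counterpart in aNPC, all 4 were intronic and none of the 4 had an aNPC H3K4me1 peak. These 4 were weak, with −log10 q values between 3.12 and 4.56.

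Nova1 (ENSMUSG00000021047.6, chromosome 12, 47795504 to 47919762, minus strand) had the H3K27ac promoter peak with the second highest −log10 q in aNPC and eA. By fold enrichment, 4.66 and 4.54, the same peak was the lowest among the strongest H3K27ac promoter peaks of the genes with such a peak. A peak of 1885 bp in aNPC and 1783 bp in eA ran from the start site into the gene, with −log10 q values of 156 (rank 97.0%) and 95.9 (rank 94.6%). In lA the stretch was split, and the piece over the start site had a −log10 q of 12.3 (rank 65.6%) while the next piece, with its summit 438 bp into the gene, had 23.6 (rank 83.9%). None of these peaks overlapped H3K4me1 at any stage. A separate H3K27ac peak with its summit at -1276, -1174 and -1152 bp from the start site overlapped H3K4me1 of all 3 stages. The gene body held 8, 7 and 7 intronic H3K27ac peaks, of which a site 22.2 kb into the gene, 47896993 to 47897762 in aNPC, had peaks at every stage with −log10 q values of 10.9, 26.9 and 14.5. Of the 11 aNPC H3K27ac peaks of Nova1, 4 had no counterpart in eA or lA.

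Nova2 (ENSMUSG00000030411.8, chromosome 7, 19510698 to 19551031, plus strand) had its start site acetylated between the pair of coding start sites, with −log10 q values of 19.6 in aNPC (rank 68.2%), 75.2 in eA (rank 91.7%) and 30.7 in lA (rank 89.0%). Its H3K4me1 peak lay to the side, with widths of 2005, 1998 and 1918 bp, upstream and ranks of 97.6%, 88.4% and 92.9%, and did not touch the H3K27ac peak. The strongest H3K27ac peak of Nova2 in each list was upstream, with summits at -7470, -7443 and -7485 bp from the start site, with −log10 q values of 41.0, 86.8 and 46.9 and H3K4me1 at all stages. A site inside the gene, 24.8 kb, 24.7 kb and 24.7 kb from the nearest start site, had −log10 q values of 10.9, 82.1 and 37.8. All 8 H3K27ac peaks of lA at Nova2 were also found in eA.

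Rbfox2 (ENSMUSG00000033565.9, chromosome 15, 76909420 to 77137483, minus strand) carried the most peaks of the 10 genes at every stage for H3K27ac, with 21, 32 and 31, although of peaks reaching a −log10 q of 5 Celf4 had 21 in lA and Rbfox2 19. It also had more H3K4me1 in aNPC and lA (52 and 66) than any other, while Celf4 had more in eA (65 against 58). Both the upstream start site and an internal one were acetylated throughout. At the upstream one (77137483) the strongest H3K27ac peak over the promoter had a −log10 q of 73.8 in aNPC and 85.9 in eA, both 250 bp downstream, and 18.2 in lA, at -294 bp. At the internal one (76984242) the values were 37.1, 62.9 and 32.3, with ranks of 79.8%, 89.4% and 89.9%, and no H3K4me1 peak overlapped at any stage. Most of the other peaks were intronic. The strongest lA peak, 77076089 to 77077143, lay 61.1 kb into the gene with a −log10 q of 55.4 (rank 96.7%), and its counterparts had 38.5 in aNPC and 55.4 in eA. Of 40 H3K27ac sites at Rbfox2, made by merging overlapping peaks of the 3 stages, 13 had a peak at all 3 stages, 7 in aNPC alone, 8 in eA alone and 7 in lA alone.

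Rbfox3 (ENSMUSG00000025576.10, chromosome 11, 118351074 to 118772911, minus strand) had H3K4me1 and little H3K27ac. Through the stages its window held 0, 7 and 5 H3K27ac peaks, beside 22, 31 and 27 H3K4me1 peaks. Per length it was low in H3K4me1 too, with 3.20%, 4.87% and 3.92% of the window covered. The medians over all coding genes were 5.33%, 6.32% and 6.53%. The promoter H3K4me1 peak at its clustered start sites (118770864 to 118770886) was 1024, 1143 and 1244 bp wide. It had −log10 q values of 36.3, 29.0 and 32.6 and ranks of 93.0%, 92.6% and 97.4%. Only in aNPC did it reach over the start sites, and in eA and lA it ended inside the gene, at 118770834 and 118770813. In eA alone this H3K4me1 domain also held H3K27ac, as 3 peaks with summits at +312, +744 and +990 bp and −log10 q values of 9.40, 2.55 and 7.76, the weakest of which ranked at 1.02% of its list. The other 4 H3K27ac peaks of eA were intronic, and they lay in 3 places. The strongest, 118697207 to 118698373, had a −log10 q of 16.5 (rank 65.4%) and lay 73.0 kb into the gene, and its lA counterpart had 11.9 (rank 64.5%). The place 33.6 to 35.4 kb into the gene held 2 peaks in eA, with values of 13.3 and 4.84, and 3 in lA, with values between 4.73 and 6.99. The third place, 118654036 to 118654867, had values of 7.11 in eA and 3.86 in lA. Of the 7 eA peaks, 6 overlapped an H3K4me1 peak of aNPC, and all 7 overlapped one of eA.

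The strongest H3K4me1 peaks of Rbfox3 ranked near the top of their lists. In aNPC, the peak at 118372974 to 118374107 near the 3′ part of the gene had a −log10 q of 83.8 and a rank of 99.9%, and its counterparts had 61.1 in eA (rank 99.8%) and 38.8 in lA (rank 98.9%). That site had no H3K27ac at any stage. It lay at -4972 bp from an internal coding start site (118368667). The H3K4me1 peak about 34.3 kb into the gene had a −log10 q of 17.8 in the aNPC list (rank 70.1%), 62.5 in that of eA (rank 99.8%) and 74.2 in that of lA (rank 99.97%), and H3K27ac peaks of eA and lA overlapped that site. Of the 22 H3K4me1 peaks of aNPC, 18 met no H3K27ac at any stage.

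**Figure D4:**
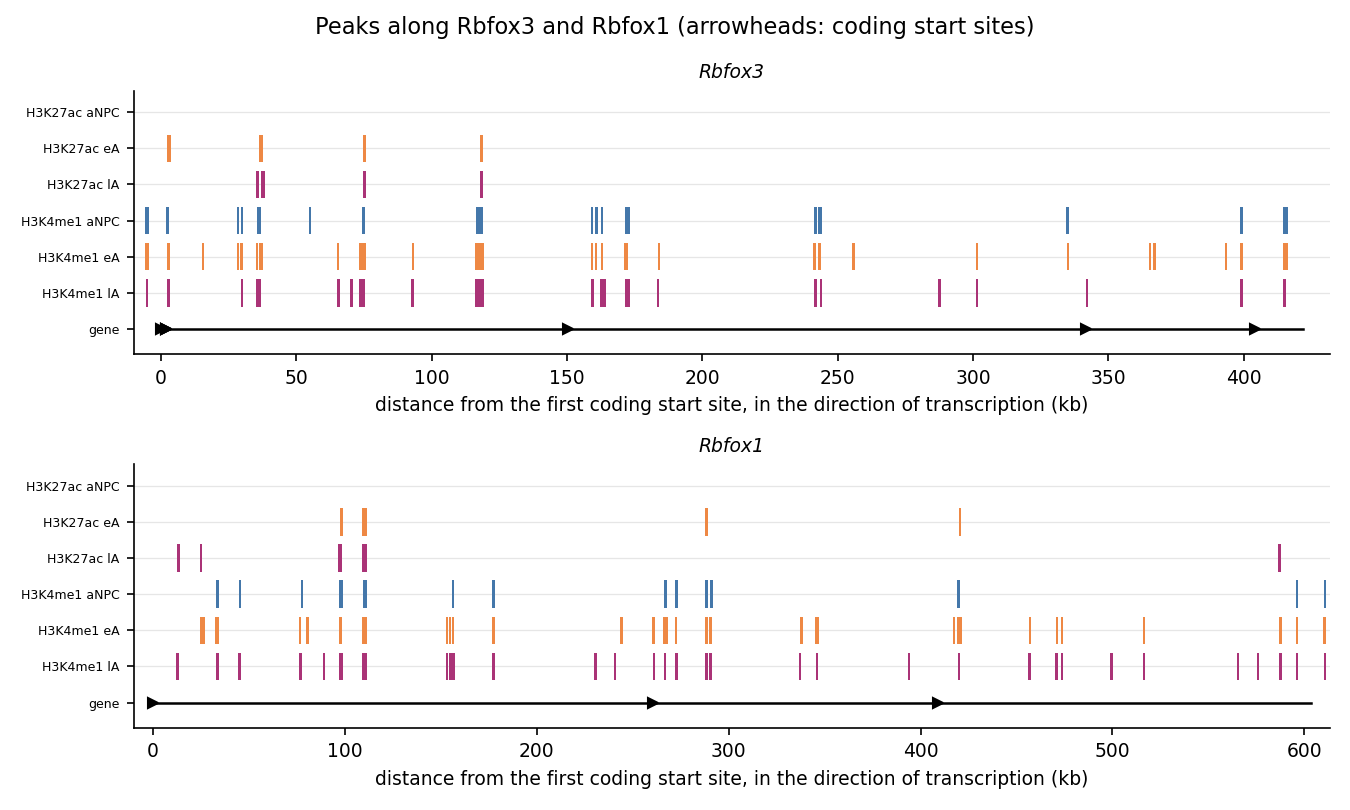
Peaks of the 6 lists along Rbfox3 (top) and Rbfox1 (bottom) with 10 kb on each side, by distance from the first coding start site in kb; rows are lists, blocks are peaks (widened where too narrow to show) and arrowheads are coding start sites. The H3K27ac row of aNPC is empty for both genes, and H3K4me1 peaks are spread along both. Of the merged H3K27ac sites, 3 of 8 at Rbfox3 and 4 of 10 at Rbfox1 had a peak in both eA and lA.

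Beside that map, the 200 bases around the summit of the strongest Rbfox3 H3K27ac peak of eA are shown, as the clearest acetylation of this gene, from chr11:118697761-118697960 on the plus strand of mm9, with the 20 bases at the summit in capitals. The stretch is intronic and holds 2 CpG.
Rbfox3 summit: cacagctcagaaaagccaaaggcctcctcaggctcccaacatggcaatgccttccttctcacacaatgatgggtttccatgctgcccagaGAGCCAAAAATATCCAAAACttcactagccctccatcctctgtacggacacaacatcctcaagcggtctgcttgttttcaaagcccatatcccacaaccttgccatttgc

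Rbfox1 (ENSMUSG00000008658.8, chromosome 16, 6809315 to 7412572, plus strand), the largest of the genes, was, like Rbfox3, without H3K27ac in aNPC. It had 0, 6 and 8 H3K27ac peaks and 20, 39 and 38 H3K4me1 peaks. None of the H3K27ac peaks was at a promoter and all were intronic. Of the eA peaks, 4 lay with their lA counterparts in 2 clusters, one 98.2 kb and the other 109 to 111 kb after the first coding start site. The strongest, 6906905 to 6907728 in eA, had a −log10 q of 15.3 (rank 63.3%), and the strongest of lA, 6918147 to 6918781, had 16.1 (rank 74.0%). Each of these 4 eA peaks overlapped an H3K4me1 peak of aNPC, eA and lA. At the promoter, H3K4me1 was found at the second start site (7069928) with a −log10 q of 5.00 in eA and 7.13 in lA, and there was none in aNPC. The promoter at the first start site (6809315) had no peak of either mark.

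Elavl3 (ENSMUSG00000003410.7, chromosome 9, 21819449 to 21856467, minus strand) had a single acetylated site, upstream of the gene. It held 2 peaks in eA with summits at -5730 and -6586 bp from the start site, where the −log10 q was 17.5 and 44.3, and in lA 1 peak of 1580 bp with 24.8. Their ranks were 67.0%, 84.5% and 84.9%. H3K4me1 was present at the site at all 3 stages, in aNPC before any H3K27ac peak was called. The promoter itself had H3K4me1 with −log10 q values of 21.2, 5.15 and 13.1 (ranks of 76.6%, 23.4% and 69.1%). Of the 7 aNPC H3K4me1 peaks, 6 met no H3K27ac at any stage.

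Elavl2 and Elavl4 both lie on chromosome 4 and had at most 4 H3K27ac peaks at any stage. Elavl2 (ENSMUSG00000008489.10, 90917454 to 91066675, minus strand) had 4, 3 and 1 H3K27ac peaks. Those at its promoter, around the start sites between 91043062 and 91043154, had a highest −log10 q of 25.1 in aNPC (rank 73.2%), 17.4 in eA (rank 66.9%) and 3.86 in lA (rank 9.95%). Counting only peaks that reached a −log10 q of 5, Elavl2 had 2, 3 and 0 H3K27ac peaks. Its strongest promoter H3K4me1 was at other start sites, near 91038725, with values of 15.7, 18.2 and 9.87. Elavl4 (ENSMUSG00000028546.11, 109876327 to 110024514, minus strand) had 4, 4 and 2 H3K27ac peaks, and its promoter peak had a −log10 q of 18.9 in aNPC (rank 67.4%), 16.3 in eA (rank 65.0%) and no counterpart in lA. H3K4me1 at that promoter was found at all 3 stages, with values of 19.8, 17.4 and 14.5. The 2 lA H3K27ac peaks of Elavl4 were intronic and weak, with values of 3.71 and 3.81, and none reached a −log10 q of 5.

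Celf4 (ENSMUSG00000024268.8, chromosome 18, 25636133 to 25912484, minus strand) had 10, 29 and 24 H3K27ac peaks, the widest difference between aNPC and eA among the 10 genes. Of the 29 eA peaks, 21 had no aNPC counterpart, and 17 of these 21 overlapped an aNPC H3K4me1 peak. The strongest of them, 25704812 to 25705852, lay 208 kb into the gene with a −log10 q of 51.5 (rank 86.7%) and had a counterpart in lA. The strongest H3K27ac peak of aNPC lay 91.4 kb into the gene with a −log10 q of 63.3, and it overlapped 2 peaks of eA, with 26.4 and 38.7, and 1 of lA, with 26.3. At the promoter, eA alone had H3K27ac, as peaks of 144 and 427 bp with values of 5.34 and 9.95. H3K4me1 flanked the start site at all stages, and its upstream peak had −log10 q values of 68.8, 43.7 and 42.7, with ranks of 99.6%, 98.6% and 99.4%. Of the 37 H3K27ac sites of Celf4, 13 had a peak in eA alone and 8 in eA and lA.

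Over all 10 genes, 67 of the 114 H3K27ac peaks of eA (58.8%, 95% Wilson interval 49.6 to 67.4) had no aNPC counterpart, beside 43.8% of all eA peaks. Without Celf4 the count was 46 of 85 (54.1%, 43.6 to 64.3), and with only peaks reaching a −log10 q of 5 it was 44 of 85 (51.8%, 41.3 to 62.1), beside 41.5% of all eA peaks at that threshold, so that in both cases the share of all eA peaks lay just inside the interval. In lA, 23 of 97 (23.7%, 16.4 to 33.1) had no eA counterpart, beside 33.9% of all lA peaks. In aNPC, 17 of 62 (27.4%, 17.9 to 39.6) had none in eA or lA, beside 36.0%. These intervals cover counting error only, and peaks of 1 gene and neighboring peaks are not independent. Merged across stages, the windows held 143 H3K27ac sites, of which 39 (27.3%, 20.6 to 35.1) had a peak in eA alone, beside 11.1% of all 132992 sites. Sites with a peak at all stages made up 24.5% (35 sites), beside 26.0%. Sites of eA alone came from 9 of the 10 genes, with 13 at Celf4, 8 at Rbfox2, 4 each at Rbfox3 and Nova2, 3 each at Nova1 and Ptbp2, 2 at Rbfox1, and 1 each at Elavl2 and Elavl4. Sites beside each other were counted apart, as between 118769790 and 118770686 at Rbfox3 and between 76934543 and 76935503 at Rbfox2. These are therefore counts of pieces rather than of separate elements. H3K27ac peaks of eA were also the narrowest, with a median of 389 bp beside 435 bp in aNPC and 429 bp in lA. Without Celf4, 26 of 106 sites (24.5%) were of eA alone. Where only peaks reaching a −log10 q of 5 were kept in each list, the share was 22 of 103 sites (21.4%), beside 10.4% of all sites. The counts of sites without Celf4 and at this threshold, and that of eA peaks without Celf4, were added after seeing the data.

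**Figure D5:**
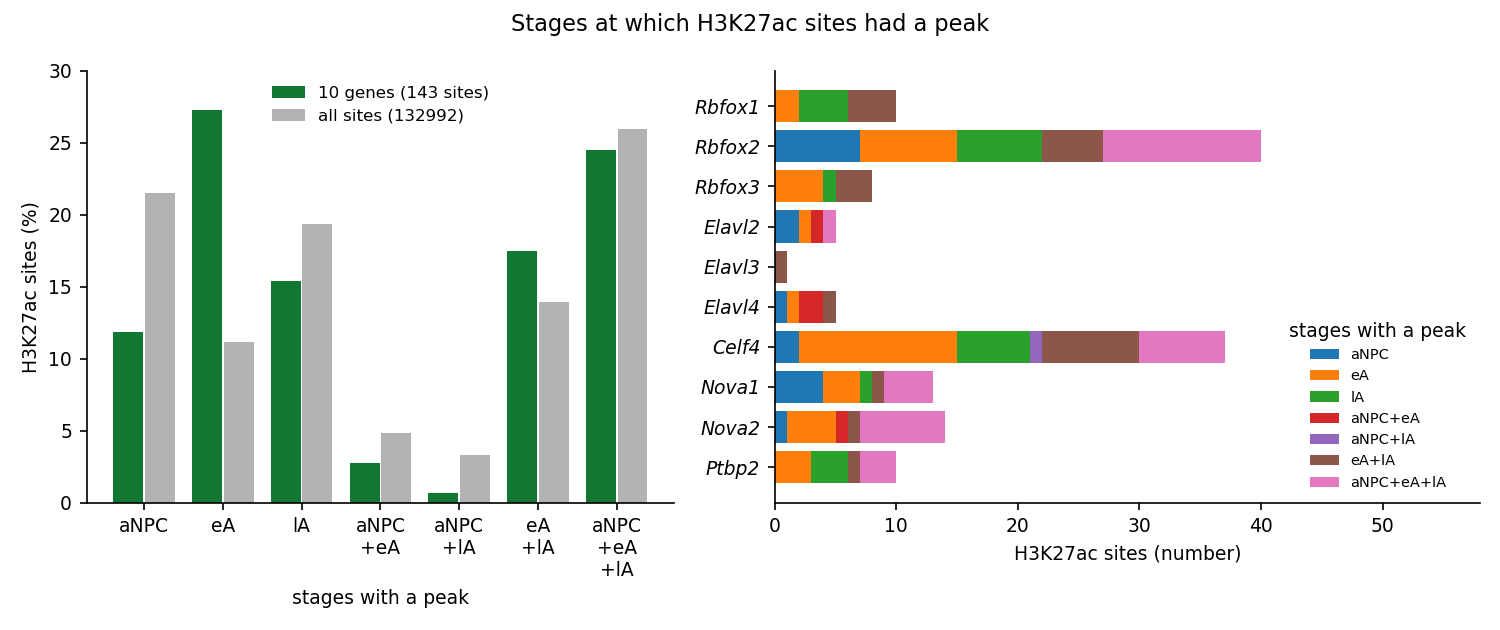
Stages at which H3K27ac sites (overlapping peaks merged across stages) had a peak. Left, percent of the 143 sites of the 10 genes and of all 132992 sites in each combination of stages; right, number of sites of each gene by combination. Sites of eA alone were 27.3% at the 10 genes and 11.1% of all sites.

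Of the 67 eA peaks with no aNPC H3K27ac, 50 (74.6%, 63.1 to 83.5) overlapped an aNPC H3K4me1 peak, beside 64.1% over the whole list, which lies within that interval. Among peaks reaching a −log10 q of 5 the count was 37 of 44 (84.1%, 70.6 to 92.1), beside 66.6%, which lies below the interval. By gene, 14 of 15 did at Rbfox2, 17 of 21 at Celf4, 6 of 7 at Rbfox3, 5 of 6 at Rbfox1, 2 of 2 at Elavl3, 2 of 2 at Elavl4, 1 of 1 at Elavl2, 3 of 5 at Nova2, 0 of 4 at Nova1 and 0 of 4 at Ptbp2. Of the 23 lA peaks with no eA H3K27ac, 15 (65.2%, 44.9 to 81.2) overlapped an eA H3K4me1 peak, beside 65.8%. Of the 198 H3K4me1 peaks of aNPC, 105 (53.0%, 46.1 to 59.9) met no H3K27ac at any stage, beside 44.5%. The count was 6 of 7 at Elavl3, 18 of 22 at Rbfox3, 15 of 20 at Rbfox1, 10 of 18 at Nova1, 23 of 45 at Celf4, 7 of 14 at Elavl4, 2 of 5 at Ptbp2, 20 of 52 at Rbfox2, 3 of 11 at Nova2 and 1 of 4 at Elavl2.

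At the same stage, 51 of 62 aNPC (82.3%), 90 of 114 eA (78.9%) and 76 of 97 lA H3K27ac peaks (78.4%) overlapped H3K4me1, beside 82.0%, 86.5% and 82.2% of the lists. In the other direction, 51 of 198 aNPC (25.8%), 84 of 264 eA (31.8%) and 68 of 239 lA H3K4me1 peaks (28.5%) overlapped H3K27ac, beside 38.9%, 36.0% and 33.7%. Of the promoter H3K27ac peaks, 6 of 12 in aNPC, 6 of 14 in eA and 2 of 8 in lA overlapped H3K4me1 of the same stage, beside 81.3%, 78.6% and 69.6% of all H3K27ac peaks at coding promoters. In aNPC the peaks without H3K4me1 were 2 at Nova1, 2 at Elavl2, 1 at Nova2 and that at the internal start site of Rbfox2. In eA they were 2 at Nova1, 2 at Ptbp2, and 1 each at Nova2, Elavl2, Celf4 and the internal start site of Rbfox2. In lA they were 2 at Ptbp2, 2 at Rbfox2, 1 at Nova1 and 1 at Nova2. These shares rest on 5 to 7 genes a stage.

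For sequence, 8 motifs were looked for on either strand within 200 bp centered on each summit. They were the single NF1 site (TTGGCA) and the paired NF1 site (TTGGC, 5 bases, GCCAA), AP-1 (TGANTCA), RUNX (TGTGGTT), STAT (TTCNNNGAA), an E-box (CAGCTG), SOX (ACAAAG) and RE1 (TTCAGCACC and GGACAG with 2 bases between), of which the paired NF1 site can hold a single one. The SOX letters were in 17 of 62 (27.4%), 25 of 114 (21.9%) and 21 of 97 (21.6%) of the H3K27ac summits of aNPC, eA and lA, beside 16.6%, 16.7% and 16.6% of all peaks of those lists. At H3K4me1 summits the shares were 18.7%, 19.7% and 19.2%, beside 19.7%, 19.0% and 18.9%. The single NF1 site was in 5, 7 and 9 H3K27ac summits (8.06%, 6.14% and 9.28%) beside 11.1%, 11.5% and 11.0%, and in 12.1%, 9.85% and 10.9% of H3K4me1 summits beside 17.3%, 16.0% and 16.1%. AP-1 letters were in 9.68%, 5.26% and 6.19% of H3K27ac summits beside 5.83%, 5.70% and 5.67%. STAT letters were in 11.3%, 7.89% and 8.25% of H3K27ac summits beside 5.82%, 6.14% and 6.15%, those of RUNX in 3.23%, 2.63% and 1.03% beside 3.90%, 3.73% and 3.90%, and those of the E-box in 11.3%, 11.4% and 9.28% beside 12.1%, 12.7% and 12.3%. At H3K4me1 summits AP-1 letters were in 10.6%, 8.71% and 12.1% beside 7.22%, 7.67% and 7.90%, STAT in 8.59%, 9.09% and 5.86% beside 6.45%, 6.56% and 7.02%, RUNX in 5.05%, 4.92% and 3.35% beside 4.25%, 4.29% and 4.47%, and the E-box in 14.1%, 13.6% and 12.6% beside 16.8%, 15.3% and 13.8%. The paired NF1 site was in 0 of the summits of the 10 genes, beside 0.0162% to 0.0823% of all peaks of a list. The RE1 letters were in 0 of the summits of the 10 genes, beside at most 0.00108% of all peaks of a list. They were in 0 of the promoters of the 10 genes, and 0.0447% of all coding promoters held them. Both motifs were thus too rare for 0 matches to set these genes apart. Peaks of the same place recur in the lists of several stages, so these shares are not independent, and a match is no sign of binding.

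Of the H3K27ac summits of eA with a SOX match, the strongest at Rbfox2, Elavl3 and Nova2 are shown, each as 200 bases of the plus strand of mm9 with the match in capitals. They are chr15:76983305-76983504 beside the internal start site of Rbfox2, chr9:21862953-21863152 at the acetylated site upstream of Elavl3 and chr7:19503672-19503871 upstream of Nova2.
Rbfox2 site: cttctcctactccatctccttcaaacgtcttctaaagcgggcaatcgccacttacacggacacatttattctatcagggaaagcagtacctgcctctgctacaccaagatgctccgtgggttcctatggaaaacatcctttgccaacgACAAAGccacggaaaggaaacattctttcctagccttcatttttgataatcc
Elavl3 site: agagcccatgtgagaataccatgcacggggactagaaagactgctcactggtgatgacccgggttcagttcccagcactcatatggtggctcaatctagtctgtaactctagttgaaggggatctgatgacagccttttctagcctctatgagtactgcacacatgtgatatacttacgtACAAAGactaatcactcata
Nova2 site: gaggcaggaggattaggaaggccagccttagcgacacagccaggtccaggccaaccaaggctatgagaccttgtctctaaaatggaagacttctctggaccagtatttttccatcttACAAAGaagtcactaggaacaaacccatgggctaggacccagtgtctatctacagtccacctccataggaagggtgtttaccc
The Elavl3 site had the gene's strongest H3K27ac peak of eA, with a −log10 q of 44.3, and the peaks shown for Rbfox2 and Nova2 had 62.9 and 24.5.

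For a wider view, 20 other genes, RNA-binding protein genes together with the transcriptional repressor Rest, were counted by their promoters only. H3K27ac was at 12, 15 and 11 of the 20 in aNPC, eA and lA, beside 50.6%, 53.2% and 48.2% of all coding genes, and H3K4me1 at 17, 18 and 16, beside 55.4%, 53.6% and 52.7%. The widely made Elavl1, Ptbp1, Ptbp3, Celf1, Mbnl1, Mbnl2, Khdrbs1 and the progenitor genes Msi1 and Msi2 had H3K27ac at every stage, as did Rest, the repressor of neuronal genes. Celf3, Srrm3, Srrm4, Khdrbs2 and Khdrbs3 had H3K27ac at no stage, and of these Srrm4 and Khdrbs2 had H3K4me1 at all 3. Celf5 and Celf6 had H3K27ac in eA only, as Celf4 did, with H3K4me1 at every stage.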

How the data were processed

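H3K27ac and H3K4me1 peaks came from 6 deposited lists, 1 per stage and mark, with 2 replicates merged in each. The authors aligned reads uniquely to mm9 with Bowtie, merged alignments with SAMtools (0.1.19 in the submitters' processing notes) and called peaks with MACS2 at default settings without input. In the deposited lists each peak has a summit, a score, a fold enrichment (a ratio), a −log10 p and a −log10 q. Position, summit and −log10 q were used, and fold enrichment only to place the Nova1 promoter peak among those of the other genes. No read counts are given, so depth and its precision are unknown. The 4 or 5 mitochondrial peaks of each list were left out.

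Genes, coding start sites and sequences came from GENCODE M1 and the mm9 genome. Peaks shared a place if they overlapped by at least 1 bp. A peak was at a promoter if it overlapped the stretch from 1 kb before to 100 bp after a coding start site; otherwise its centre decided between exon, intron and flank. Motifs were matched exactly. Named were all 10 genes, their promoter peaks and their strongest peaks per list. The members and lists were chosen with earlier results of these data known. The other libraries of the series, RNA libraries and knockdowns, were not analysed here. Interval functions were tested on simulated data. Python 3.11.15, NumPy 2.4.6, SciPy 1.17.1 and matplotlib 3.10.9 were used. Alternatives were a −log10 q of at least 5, lists of equal length, other windows, promoters and overlap rules, and a motif window of 500 bp; omitting Celf4, and the first 2 of these for the share of sites of eA alone, were chosen after seeing the data. One marker gene of the progenitor list is not reported here.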

Additional observations from a re-analysis of the deposited data

How the results depend on the processing

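Of 94 values recomputed for the counts and shares of the 10 genes, 89 stayed within 1.5 times the count reported, or within the 95% Wilson interval of the share. Counting only peaks that reached a −log10 q of 5, the eA H3K27ac peaks without an aNPC counterpart fell from 67 to 44 of 85 (51.8%, beside 41.5% of all eA peaks), the lA peaks without an eA counterpart from 23 to 15 of 71 (21.1%, beside 30.3%), and the aNPC peaks without a later counterpart from 17 to 11 of 52 (21.2%, beside 34.0%), since fewer peaks remained. Of 96 values for single genes and motifs, 42 moved further than that, 32 of them motif shares in 500 bp in place of 200 bp. The other 10 were gene counts at a −log10 q of 5. H3K27ac peaks went from 4 to 2 at Elavl2 in aNPC, from 8 to 3 at Ptbp2 in eA, and in lA from 31 to 19 at Rbfox2, 5 to 3 at Rbfox3, 1 to 0 at Elavl2 and 2 to 0 at Elavl4. H3K4me1 peaks went from 22 to 14 at Rbfox3 in aNPC, 5 to 3 at Ptbp2 in eA, and in lA 14 to 9 at Ptbp2 and 7 to 4 at Elavl2. The share of new eA peaks with aNPC H3K4me1 was 84.1% at that threshold, beside 66.6% over the list, and 67.6% (56.1 to 77.3) beside 55.4% where a summit had to lie inside the other peak. By that summit rule 68.0% of lA H3K27ac peaks met H3K4me1, beside 68.2% over the list. Lists of equal length, gene bodies with no flank or 50 kb of it, and an overlap of at least 50% of the shorter peak moved none of these values beyond that. The share of H3K27ac sites of eA alone was 24.5% without Celf4 and 29.3% with lists of equal length, beside 11.8% of all sites there; these settings were chosen after seeing the data. Leaving out a replicate was not possible, since each list merges 2, and no paired analysis was possible because the results come from no test. Depth is unknown, so a place without a peak lay under a threshold of unknown height.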

Other observations

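In 500 bp around the summits, the SOX letters were in 45.2%, 43.9% and 39.2% of the H3K27ac peaks of the 10 genes in aNPC, eA and lA, beside 37.4%, 37.9% and 37.6% of the lists. In the same window the AP-1 letters were in 24.2%, 22.8% and 21.6%, beside 14.5%, 16.2% and 15.7%, and the single NF1 site (TTGGCA) was in 21.0%, 19.3% and 17.5%, beside 27.6%, 29.7% and 27.1%.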
